A study of Mus musculus with 8 samples.

Results

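The voltage-gated sodium and calcium channels and the potassium channels were examined gene by gene in embryonic mouse brain. Members were taken by symbol: Scn followed by a digit, Cacna, Cacnb or Cacng, or Kcn. This gave 119 genes of the 18193 genes read on the array, with 252 probe sets (sets of short probes that together give 1 reading). All 119 symbols are current in RefSeq.

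Whole brains of C57/BL6 embryos were dissected at E12.5 and their RNA was hybridised to 1-colour Affymetrix arrays. The 4 Cre+, Rest GTi/GTi arrays came from embryos with the Nestin Cre transgene and an inverted gene trap on both alleles of Rest. The 4 control arrays came from Rest GTi/GTi littermates, which carry the same inverted trap on both alleles and no Cre. Cre turns the trap back into its blocking orientation in neural progenitors and their descendants, while microglia, which arise outside the neural tube, are not its target. Cre itself and the loss of REST cannot be told apart. The arrays are labelled as biological replicates, but the labels do not say how many embryos each one pools, so a p-value covers the spread between these arrays only. The 2 groups are called Cre+ and control below. The question of the comparison is whether neuronal genes change when REST, their repressor, is lost from progenitors.

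Sodium and calcium channels open when the membrane depolarises and carry the upstroke of the action potential and the calcium that triggers transmitter release, while potassium channels return the membrane to rest and set its level. Each channel is built around a pore-forming subunit, and auxiliary subunits (beta, gamma, alpha2delta, KChIP, KCNE) set its gating and transport. REST binds a DNA element called RE1 and holds neuronal genes silent in cells that are not neurons. Scn2a is among the classical genes with such an element.

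Promoters of 91 of the 119 members could be taken from RefSeq (GRCm38.p6), each as 250 bases before and 50 after the transcript start. A gene with several annotated starts has several windows and counts once if any of them holds a match. The number of starts per gene was not taken into account. The full RE1 consensus lay on neither strand in any window of the 91 members, against 21 of 27025 genes (0.0777%). Its right arm, GGACAGC on either strand, lay in 13 of 91 (14.3%) and in 2051 of all genes (7.59%). These are matches of letters in a short window, and RE1 elements are known to lie also in introns and far from starts. Shown are 3 windows, for the member with the smallest p among the 119 and for the 2 that had a right arm, an unadjusted limma p under 0.05 and a mean intensity of at least 50. The capitals mark the arm read on the other strand.

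Kcna5, chr6:126535506-126535805, minus strand, no right arm: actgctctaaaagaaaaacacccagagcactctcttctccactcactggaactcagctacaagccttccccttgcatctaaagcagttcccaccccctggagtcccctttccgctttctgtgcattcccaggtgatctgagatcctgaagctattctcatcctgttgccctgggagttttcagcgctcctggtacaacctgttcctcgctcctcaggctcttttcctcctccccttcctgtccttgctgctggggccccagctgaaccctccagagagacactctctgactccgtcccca

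Kcnk10, chr12:98578164-98578463, minus strand, right arms from bases 144 and 204: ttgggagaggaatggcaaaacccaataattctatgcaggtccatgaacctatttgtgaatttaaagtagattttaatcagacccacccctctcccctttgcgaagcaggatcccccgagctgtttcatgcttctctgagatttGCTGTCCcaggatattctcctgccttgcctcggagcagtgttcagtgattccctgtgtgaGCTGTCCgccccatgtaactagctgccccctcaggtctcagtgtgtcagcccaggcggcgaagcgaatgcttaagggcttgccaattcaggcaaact

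Kcnk1, chr8:125994852-125995151, plus strand, right arm from base 141: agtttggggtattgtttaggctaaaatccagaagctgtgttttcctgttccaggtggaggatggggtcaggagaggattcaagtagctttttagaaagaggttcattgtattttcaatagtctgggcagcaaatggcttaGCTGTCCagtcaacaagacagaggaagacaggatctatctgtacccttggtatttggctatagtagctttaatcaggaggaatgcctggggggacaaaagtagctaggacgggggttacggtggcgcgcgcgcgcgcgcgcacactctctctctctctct

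A further annotated start of Kcnk10 had no right arm in its window. Kcnk10 lay below and Kcnk1 above the controls in the mean, as given with their values below.

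The arrays differed in more than genotype. On the brightest Rest probe set the 4 Cre+ arrays read 84.4 to 216.7 and the controls 170.1 to 271.8 (log2 fold change -0.51, standard error 0.25, limma adjusted p = 0.758), with overlap between the groups, and where these probes lie relative to the trap is not known here. Levels are normalized intensities, and changes are differences, Cre+ minus control, on the scale of log2(intensity + 16). Relative to the control mean, 12 microglial markers averaged 1.15 to 1.39 higher on log2 on every Cre+ array (controls -0.11 to 0.11), 9 of them called, and their summed intensity ran from 2139 to 2365 against 714 to 849, with none of the 12 at 0 on any array. Mesenchymal markers averaged 2.37 and 3.43 on Cre+ replicates 1 and 2 and -0.41 to 0.5 on controls. Hindbrain Hox genes averaged 2.02 and 1.26 on Cre+ replicates 3 and 4, 0.61 on Cre+ replicate 2 and 0.71 on control 1. They averaged -0.46 on Cre+ replicate 1 and -0.35 to -0.04 on the remaining controls. Choroid plexus markers averaged 1.22 and 1.04 on Cre+ replicates 1 and 2 and 0.84 on control 4. The Y-linked Eif2s3y was present on all 4 Cre+ arrays and on controls 1 and 4. The 14 neuronal markers, which check the tissue, were measured throughout, at summed intensities of 43757 to 61097 against 50676 to 57579.

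None of the 119 channel genes was called higher or lower in Cre+, Rest GTi/GTi brain. With limma and Benjamini-Hochberg adjustment at 0.05, 0 members passed in either direction, beside 0.214% of all genes higher (39) and 0.011% lower (2). The lowest adjusted p was 0.307 among the genes and 0.303 among all 252 probe sets. At an unadjusted limma p under 0.05, 4 members were higher (3.36%) and 5 lower (4.2%), beside 3.94% and 3.03% of all genes. The methods' t-test gave 2 higher and 5 lower at the same threshold (1.68% and 4.2%, all genes 3.49% and 3.4%).

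The log2 fold change lay above 0 for 63 members and below 0 for 56, with a median of 0.004 (all genes -0.001), and ran from -0.59 to 0.58. In 1 member, Kcna5, all 4 Cre+ arrays lay above all controls (0.84%, all genes 2.48%). In 3 members, Kcnn1, Kcnk10 and Cacna2d1, all lay below (2.52%, all genes 2.15%). The 95% interval of the change stayed within 1.5-fold either way for 75 of 119 members and within 1.3-fold for 37. For the members outside these bounds a larger change also remains possible at this number of arrays.

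**Figure D1:**
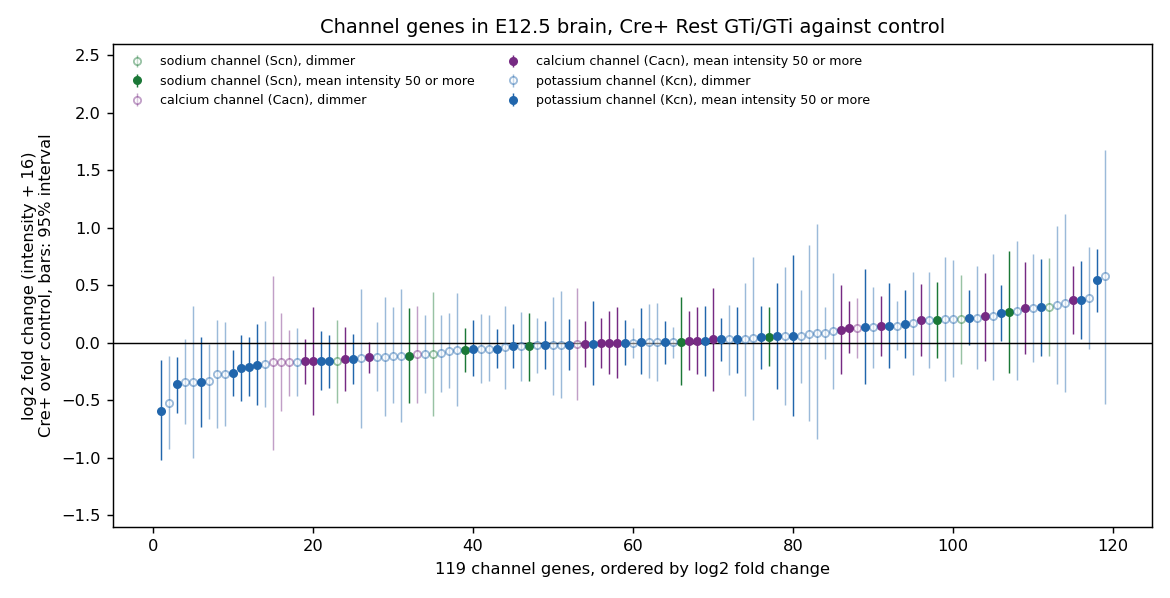
Log2 fold change of the 119 channel genes, Cre+ over control (y axis, log2 of intensity + 16), ordered from lowest to highest (x axis). Points are colored by ion, open where the mean intensity is under 50, and bars are 95% intervals from limma (n = 4 arrays per genotype). The points cross 0 near the middle of the order, 63 above and 56 below.

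Intensity set what could be read. In 34 members the mean intensity was below 16, the constant added before the logarithm, so their changes are understated the most. Another 58 had a mean of at least 50. Among these the interval stayed within 1.5-fold for 45, and 4 were higher and 3 lower at unadjusted p under 0.05 (6.9% and 5.17%), beside 3.57% and 2.45% of all 11220 genes of that intensity. These shares were not tested against each other. The median change was 0.01 (all genes of that intensity -0.002). In bulk tissue, fewer cells of a type and less RNA per cell cannot be told apart.

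**Figure D2:**
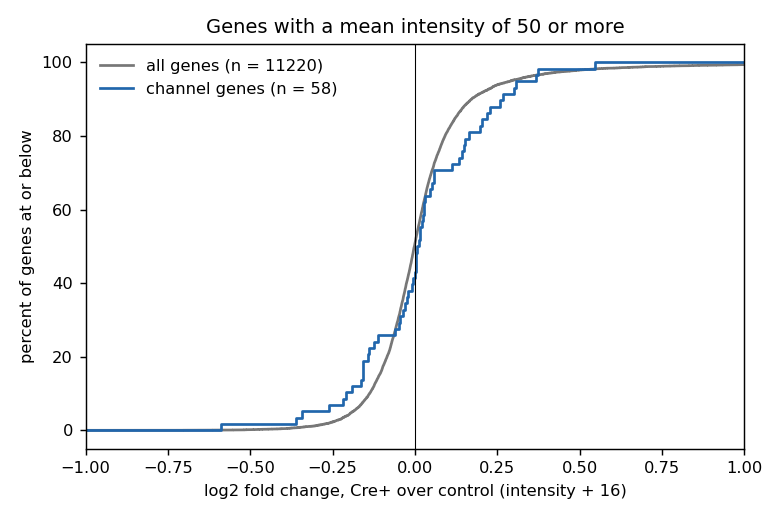
Cumulative percent of genes (y axis) against log2 fold change (x axis) for the 58 channel genes and all 11220 genes with a mean intensity of at least 50. Both curves pass the middle near 0, with medians of 0.01 and -0.002, and the channel genes spread more widely on both sides.

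The sodium channel pore genes did not pass the test in either direction (0 of 8 called, 0 at unadjusted p under 0.05, median change -0.047). Scn2a, the main channel of early axons and a classical RE1 gene, read 315.9, 442.7, 580.1 and 509 on Cre+ replicates 1 to 4 and 489.3, 450.5, 426.6 and 423.3 on controls 1 to 4. The Cre+ arrays thus held both the lowest and the highest value and enclosed all controls. The change was 0.01 on log2 (standard error 0.17, 95% interval -0.37 to 0.4, limma adjusted p = 0.997), and 3 Scn2a probe sets with a mean of at least 50 gave 0.01 to 0.11. Scn8a, a channel of mature axon initial segments, had a difference of -0.06 with a narrower interval of -0.25 to 0.13. Scn3a, abundant in embryonic brain, had a difference of -0.11. Scn9a, known from pain-sensing neurons, read 48.8, 120.7, 80.3 and 74 against 76.3, 64.9, 41.7 and 68.5. Its change of 0.27 (95% interval -0.26 to 0.8) was within the spread of the arrays, and was 0.09 without Cre+ replicate 2, 0.13 without control 3 and 0.45 without Cre+ replicate 1. The 5 probe sets of Scn9a ran from -0.09 to 0.4, and only the one given here had a mean of at least 50.

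Scn10a, also a channel of pain-sensing neurons, was near 0 on 7 arrays (0.5 to 1.4) and read 12.4 on Cre+ replicate 2. Among the sodium channel beta subunits, which couple the pore to adhesion proteins, 0 of 3 were called and all 3 changes were above 0 (median 0.202). Scn3b read 939.7, 1078, 1500 and 1197 against 1162, 923.5, 1005 and 955, with overlap between the groups. Its change was 0.20 (standard error 0.14, limma adjusted p = 0.851) and 0.08 without Cre+ replicate 3, and its second probe set gave 0.15. Scn4b stayed between 1.2 and 19.4 on all arrays and Scn2b had a difference of 0.05.

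Of the 9 calcium channel pore genes none was called and 1 was higher at unadjusted p under 0.05 (median change 0.112). Cacna1e, the pore of the R-type channel, read 136.3, 200.3, 214.5 and 167.9 against 132.9, 129.4, 144 and 127.1. Replicates 2, 3 and 4 of Cre+ lay above all controls and replicate 1 lay among the controls. The change was 0.37 (standard error 0.13, limma adjusted p = 0.635, two-sided exact permutation p = 0.0571), and a dim second probe set gave 0.16. Cacna1a, the pore of the P/Q-type channel of nerve terminals, read 86.3, 70.2, 84.2 and 76.6 against 81, 88.6, 95.7 and 97.8, a change of -0.16 (limma adjusted p = 0.778). Its 3 probe sets with a mean of at least 50 gave -0.16 to -0.06. Cacna1h, a low-threshold T-type pore on the list of RE1 genes, had a difference of 0.02 (95% interval -0.27 to 0.31).

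The alpha2delta subunits, which bring calcium channels to the surface and are the targets of gabapentin, had 0 of 4 called (median change -0.006). Cacna2d1 read 1226, 1233, 1293 and 1257 against 1380, 1389, 1332 and 1361. Both groups were tight and did not overlap, with means of 1250 ± 29.8 and 1370 ± 25.3 (SD, n = 4). The change was small, -0.12 (standard error 0.06, limma adjusted p = 0.753, two-sided exact permutation p = 0.0286, which is the smallest possible with 4 against 4 arrays). Its 5 probe sets ran from -0.25 to 0.06, and the second with a mean of at least 50 gave 0.06, so the probe sets of the gene did not share a direction. Cacna2d3 read 281.1, 312.9, 561.9 and 436.5 against 360.3 to 408.1 in controls, a change of 0.03.

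Beta subunits release the pore from retention inside the cell. None of the 3 measured was called (changes -0.16 to 0.2). Cacnb4 read 123.9, 146.9, 265.9 and 208.8 against 226.5, 180.7, 197.4 and 203.8, so that Cre+ replicates 1 and 2 lay below and replicate 3 above every control. Cacnb1 had a difference of 0.20, and the second of its probe sets with a mean of at least 50 gave -0.02.

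Gamma subunits include the stargazin family, which also carries AMPA receptors to synapses, and 0 of 8 were called (median change -0.056). Cacng2, stargazin itself, read 238.5, 341.4, 428.8 and 361.1 against 298.7, 223, 254.9 and 308.9, a change of 0.30 (standard error 0.18, limma adjusted p = 0.805), or 0.19 without Cre+ replicate 3 and 0.46 without replicate 1. Its second probe set gave 0.26. Cacng3 lay between 22.5 and 38.4 on all arrays (change -0.17). Cacng4 had a difference of -0.01, with an interval of -0.21 to 0.19.

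Probe sets of Cacng7 differed in how far the groups stood apart, a case noticed after the values were seen. The dimmer one read 60.4, 61.3, 56.5 and 55.3 against 79, 72.4, 69.1 and 87.7, all below the controls (change -0.32, limma adjusted p = 0.417). The brighter one, which represents the gene, overlapped (change -0.14, limma adjusted p = 0.887).

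Of the 31 voltage-gated potassium channel pore genes, the largest family, none was called, 2 were higher and 0 lower at unadjusted p under 0.05, and the median change was -0.045. Kcna5, a delayed-rectifier pore known from heart, vessel muscle and macrophages, had the smallest p of all members. It read 67.6, 65.6, 67.7 and 87.2 on Cre+ replicates 1 to 4 and 55.7, 46.1, 36.6 and 39.5 on controls 1 to 4. All 4 Cre+ arrays lay above all controls, with means of 72 ± 10.2 and 44.5 ± 8.47 (SD, n = 4). The change was 0.55 (standard error 0.12, 95% interval 0.27 to 0.82, limma adjusted p = 0.307, two-sided exact permutation p = 0.0286), a ratio of 1.46. A single probe set reads the gene, and the microglial markers moved the same way on the same arrays, whose part in the value was not tested.

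Kcna1, a low-threshold pore of axons, is read by 2 probe sets with a mean of at least 50. The brighter read 68, 62.5, 67.5 and 52.6 against 40.6, 47.4, 55.7 and 55.5 (change 0.26, limma adjusted p = 0.696). The other read 64.9, 68.8, 66.9 and 50.3 against 47.3, 41, 40.5 and 37.1, with no overlap (change 0.45, standard error 0.10, limma adjusted p = 0.303). Both lay in the same direction, and the 2 dimmer sets gave 0.20 and -0.11. Kcna2, its partner in axonal channels, had a difference of -0.16, and its 4 probe sets ran from -0.21 to -0.07. The 4 probe sets of Kcnc1, a fast-spiking pore, ran from 0.08 to 0.31, all within the spread of the arrays.

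Kcnq3, a pore of the M current that limits repetitive firing and a listed RE1 gene, read 120.7, 185.2, 230.4 and 194.2 against 236.2, 254.7, 205.7 and 226.7. Only replicate 3 of Cre+ reached into the controls. The change was -0.34 (standard error 0.17, limma adjusted p = 0.765) and -0.17 without replicate 1, and a dim second probe set gave -0.04. Kcnd3, an A-type pore also listed, read 485.8, 512, 645.9 and 508.5 against 576.1, 564, 609.4 and 613.2 (change -0.14, limma adjusted p = 0.846). Kcnh8 had a difference of -0.21, Kcng1, a silent subunit, of -0.34 at intensities of 22.1 to 57.3, and Kcnh3 of 0.14. None of these 3 passed the test.

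Auxiliary subunits of these channels numbered 12, of which none was called and 1 was lower at unadjusted p under 0.05 (median change 0.015). Kcnab3, a beta subunit, read 9.9, 14.4, 7.2 and 3.3 against 16.4, 18.3, 12.8 and 30.3. These levels lay around the added constant, and the second probe set gave 0.26 where this one gave -0.52 (limma adjusted p = 0.629). Kcnip1, a calcium-binding partner of A-type pores, read 174.8, 201.9, 344.6 and 253 against 190.7 to 271.1 in controls, a change of 0.06.

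Kcne2, a KCNE subunit known from choroid plexus epithelium, had the largest positive change of all members and the widest interval (0.58, 95% interval -0.53 to 1.68). It read 37.5, 40.2, 0.9 and 1.3 on Cre+ arrays and 0.6, 0.8, 0.6 and 22.4 on controls. Kcnj13, a pore of the same epithelium that was picked out after its values were seen, read 54.5, 40.1, 2.9 and 16.2 against 11, 17.3, 20.4 and 41. Both were highest on Cre+ replicates 1 and 2 and on control 4. These are the 3 arrays on which Ttr, the plexus marker, read 4672, 5232 and 2864, against 22.3 to 196.4 on the others. The 8 plexus markers summed to 2266 to 7902 against 2397 to 5666, and their part in the 2 values was not tested. On replicates 3 and 4 alone the changes were -0.27 for Kcne2 and -0.58 for Kcnj13, the opposite sign.

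**Figure D3:**
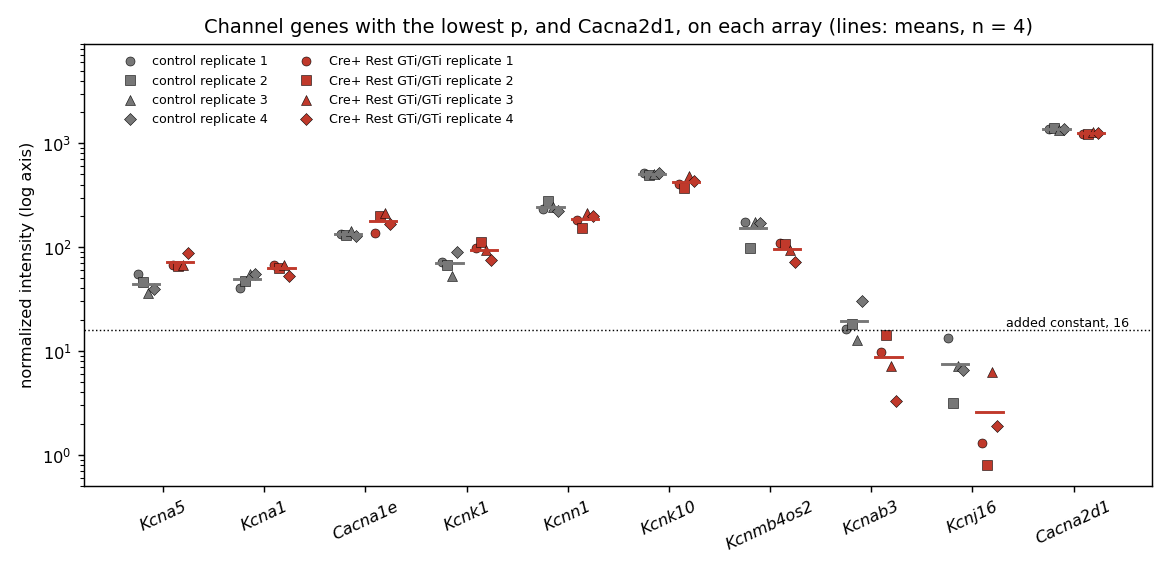
Normalized intensity on each array (y axis, log scale) of the 9 channel genes with an unadjusted limma p under 0.05 and of Cacna2d1, with Cre+ arrays in red, controls in gray, symbols by replicate number and lines at the means (n = 4). Kcna5 lies wholly above its controls, Kcnn1, Kcnk10 and Cacna2d1 lie wholly below, and Kcnab3 and Kcnj16 lie near or under the added constant of 16.

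Inward rectifiers hold the resting potential, and 0 of 15 were called, with 1 lower at unadjusted p under 0.05 (median change 0.004). That gene, Kcnj16, read 1.3, 0.8, 6.3 and 1.9 against 13.3, 3.2, 7.2 and 6.6, far below the added constant. Kcnj8, the pore of the ATP-sensitive channel of pericytes and vessel muscle, read 127.2, 101.1, 118.2 and 108.8 against 113.7, 84.3, 98.9 and 86.2, a change of 0.22 (standard error 0.11, limma adjusted p = 0.758). Its partner Abcc9, the regulatory subunit, had a difference of 0.34 (limma adjusted p = 0.745). The 7 pericyte markers, of which Abcc9 is one, averaged 0.27 to 0.71 higher on the Cre+ arrays and -0.13 to 0.09 on controls, with summed intensities of 1646 to 2239 against 1116 to 1412. Their part in Kcnj8 was not tested.

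Background potassium channels of the 2-pore family set the resting leak, and of 12 genes none was called, with 1 higher and 1 lower at unadjusted p under 0.05 (median change -0.017). Kcnk10, a mechanically and lipid-gated leak channel whose window with 2 right arms is shown above, read 404.6, 371.2, 484.3 and 429.9 against 519.2, 491.2, 504.4 and 513.2. All 4 Cre+ arrays lay below all controls (422 ± 47.7 against 507 ± 12.2, SD, n = 4). The change was -0.26 (standard error 0.09, limma adjusted p = 0.612, two-sided exact permutation p = 0.0286). Its second probe set read 54.8, 56.2, 61 and 71.5 against 80.3, 79.8, 72.6 and 95.9, again without overlap, a change of -0.35 (limma adjusted p = 0.51).

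Kcnk1, a weakly inward-rectifying leak channel, read 98.2, 111.7, 92.9 and 75.6 against 71.8, 67.4, 52.2 and 89.3, a change of 0.37 (standard error 0.15, limma adjusted p = 0.693). The highest control exceeded the lowest Cre+ array. Its second probe set read 33.1, 35.2, 26.4 and 30.5 against 17.9, 13.1, 26.6 and 29.6 (change 0.34). Kcnk6 had a difference of 0.39 at intensities of 21.4 to 60.9 (limma adjusted p = 0.765), and of 0.10 on replicates 3 and 4 alone.

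Among pores opened by calcium or sodium, 0 of 8 were called and 1 was lower at unadjusted p under 0.05 (median change 0.011). Kcnn1, a small-conductance pore of the after-hyperpolarization, read 182.8, 154.1, 211.9 and 198.2 against 232.9, 275.3, 243.9 and 223.2, all below the controls. The change was -0.36 (standard error 0.11, limma adjusted p = 0.539, two-sided exact permutation p = 0.0286), and its second probe set gave -0.34 with overlap. Kcnma1, the large-conductance pore, varied most within genotype among members with a mean of at least 50. It read 66.7, 64.2, 161.2 and 113.9 against 117.2, 88.3, 120.2 and 52.7, a change of 0.06. Kcnn4, known from blood cells and microglia and listed as an RE1 gene, read 24.9, 29.3, 9.6 and 13.6 against 10.1 to 17.7 in controls (change 0.20). Kcnt2 lay between 18.7 and 30.9 on all arrays (change 0.15).

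The large-conductance beta subunits had 0 of 3 called. Kcnmb4, the neuronal one, had a difference of 0.01 with an interval of -0.18 to 0.19, and Kcnmb2 of 0.15. The Kcn symbols include 3 non-coding transcripts, of which 1 was lower at unadjusted p under 0.05. Kcnmb4os2, an RNA opposite Kcnmb4, read 110.1, 106.7, 94.2 and 71.5 against 173.1, 98.3, 173.8 and 170.2. Control 2 fell among the Cre+ arrays and the other controls lay above all of them. The change of -0.59 was the most negative of all members (standard error 0.19, limma adjusted p = 0.594). Kcnmb4os1 was at or below 5.7 on every array.

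Channel genes linked to RE1 elements were taken from a list of 8, of which 6 were measured (Scn2a, Kcnq3, Kcnn4, Kcnd3, Scn10a and Cacna1h). None of these 6 was called or passed an unadjusted p under 0.05. Their changes ran from -0.34 to 0.21, with a median of 0.02. Partners of the channels, such as the FGF homologous factors, contactins, ankyrins and regulatory subunits, were taken from a list of 34, of which 29 were measured. None was called, 2 were higher and 0 lower at unadjusted p under 0.05 (all genes 3.94% and 3.03%), and the median change was 0.02. These were Unc80, a subunit of the sodium leak channel complex (0.33, limma adjusted p = 0.688), and Stac, an adaptor of L-type calcium channels (0.25, limma adjusted p = 0.726).

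Probe sets of the same gene were a check on direction, but they share the same arrays, so agreement between them is no independent support. No share over all genes was taken for these counts. Of 72 genes with several probe sets, 35 had changes of one sign throughout. Of 22 genes with several sets at a mean of at least 50, 17 did. Kcnn1, Kcnk10, Kcnc1, Cacng2 and Kcna1 were among these 17, while Cacna1b, Cacna2d1, Cacnb1, Cacnb4 and Scn8a made up the rest.

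**Figure D4:**
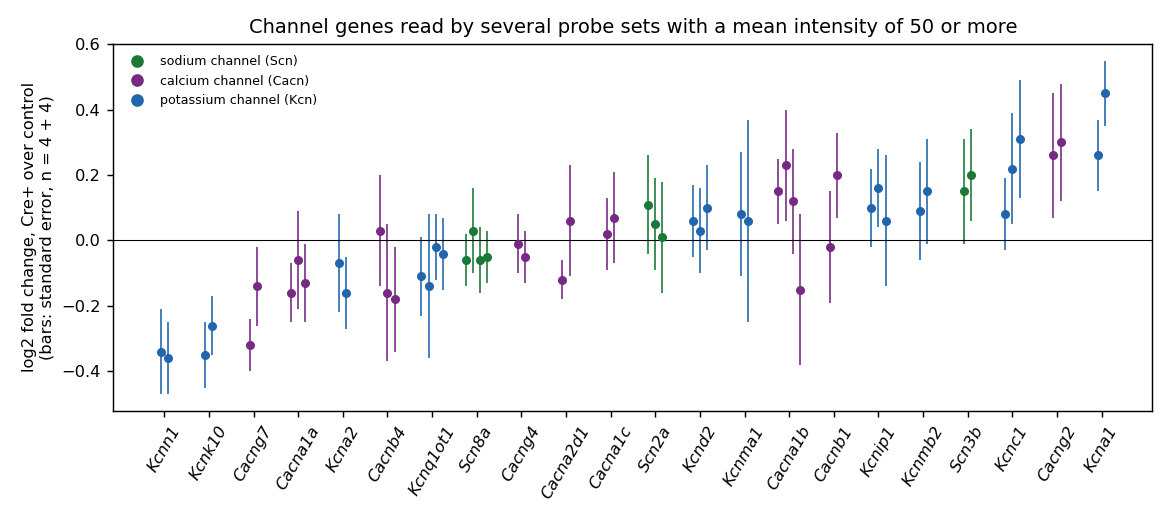
Log2 fold change of every probe set with a mean intensity of at least 50 (y axis, bars are standard errors, n = 4 arrays per genotype) for the 22 channel genes with several such sets (x axis). Kcnn1 and Kcnk10 lie below 0 and Kcna1 above 0 on each of their sets, while the sets of 5 genes fall on both sides.

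The channel genes varied more among Cre+ arrays than among controls. Among the 58 members with a mean of at least 50, the SD of log2 intensity was larger in Cre+ for 42 (72.4%, all genes of that intensity 62.1%), with median SDs of 0.203 and 0.141 (all genes 0.128 and 0.104). These shares are a description without a test. Replicate 1 held the lowest of the 8 values for 20 of the 58 (34.5%, all genes 17.8%) and replicate 3 the highest for 22 (37.9%, all genes 14.9%). Replicate 3 was lowest for 0 of the 58.

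In all, 10 members were lowest on replicate 1 and highest on replicate 3 at once: Cacna1d, Cacna1h, Cacna2d3, Cacnb4, Kcna3, Kcnd3, Kcnip1, Kcnu1, Scn2a and Scn8a. Averaged over the 58, the log2 level relative to the control mean was -0.13, -0.02, 0.19 and 0.04 on Cre+ replicates 1 to 4 and -0.08 to 0.07 on controls. The 14 neuronal markers averaged -0.3, 0.05, 0.24 and 0.11 on the same arrays and -0.07 to 0.13 on controls. Channel genes, neuronal markers and hindbrain genes were thus each lowest on replicate 1 and highest on replicate 3. The part of the markers in the channel values was not tested.

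With replicates 3 and 4 alone, on which mesenchymal and choroid plexus markers lay below the control mean, 0 members were called, 12 were higher and 3 lower at unadjusted p under 0.05 (10.1% and 2.52%, all genes 3.91% and 2.49%), and the median change was 0.034. These replicates carry the highest hindbrain signal, and the lean toward higher values was not seen with all 4.

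**Figure D5:**
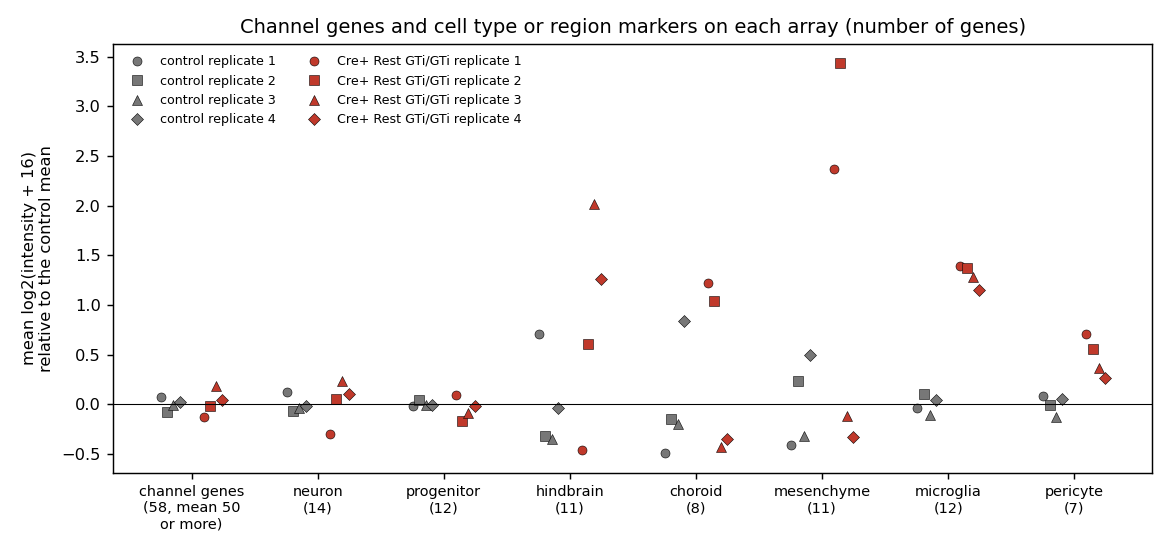
Mean log2(intensity + 16) relative to the control mean (y axis) for the 58 brighter channel genes and for marker lists (x axis, number of genes in brackets), 1 symbol per array, with Cre+ arrays in red and controls in gray. Channel genes stay within -0.13 and 0.19, microglial markers lie at 1.15 or more on every Cre+ array, and mesenchymal, choroid plexus and hindbrain markers differ between replicates of one genotype.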

How the data were processed

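RNA was extracted with Trizol and a Qiagen column. The study's methods name RMA in AffyPLM, a log2 scale and a t-test adjusted by Benjamini-Hochberg. The values deposited by the authors are linear intensities per probe set with unequal array medians (40.9 to 68), which RMA output does not have, and which step made them is not given in the sources used here.

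Here the intensities were quantile-normalized, 16 was added, log2 taken, and limma 3.58.1 (lmFit, eBayes, R 4.3.3) run on 45037 of 45101 probe sets (64 controls left out), with Benjamini-Hochberg adjustment over all of them and calls at 0.05. In the platform annotation 34945 probe sets have 1 gene symbol, 932 have several and 9160 have none. Each gene is represented by its probe set with the highest mean. The number of arrays limits precision, and 30.6% of probe sets had a mean below 16. Single values were also given an exact permutation test over the 8 arrays, unadjusted. The fold changes of the fit were checked on simulated arrays with known folds and independent noise. That check does not cover error rates or differences in tissue between arrays.

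Members and lists were chosen with earlier results of these data known. Named were the 16 members with the smallest p, up to 2 per subunit family, the 5 with the largest within-genotype SD among those with a mean of at least 50, listed RE1 genes, and Kcna5, together with their probe sets. Kcna5 was included as a member named in the paper or its supplementary gene tables. Other genes are named as examples of their family, for a count of 5 or fewer, or as lists of a pattern, with their values already known. Alternatives were other scalings and constants, the methods' t-test (equal and unequal variances), eBayes with trend, averaging the probe sets of a gene, a filter on dim ones, a replicate block, subsets of arrays and leaving out each array. Arrays of like replicate number did not deviate together, which does not decide whether they share a litter.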

Additional observations from a re-analysis of the deposited data

Results flagged for a closer look

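In 76 groups of 4 arrays, 2 for each of the 38 genes tested, 7 had 1 array far from the other 3. With independent, normally spread values about 1 in 20 groups would do so. That rate is no measure here, because genes were partly chosen for spread or small p, share the same arrays, and in part lie near 0. Cacna1h read 443 on control 2 and 484.8 to 487.1 on the other controls. Cacng3 read 31.4 on control 1 and 36.9 to 37.8 on the others. Kcna5 read 87.2 on Cre+ replicate 4 and 65.6 to 67.7 on the others of that genotype, so its largest value came from 1 array while the other 3 also lay above all controls. Kcnd3 read 645.9 on Cre+ replicate 3 and 485.8 to 512 on the others. Kcne2 read 22.4 on control 4, an array with choroid plexus signal, and 0.6 to 0.8 on the other controls. Kcnmb4os2 read 98.3 on control 2 and 170.2 to 173.8 on the others. Scn10a read 12.4 on Cre+ replicate 2 and 0.5 to 1.4 on the others.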

How the results depend on the processing

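Under all 23 alternatives 0 channel genes were called in either direction, and none of the 38 genes followed through them was called. Of these 38, 24 never changed sign. With no scaling 1 member was higher and 0 lower at unadjusted p under 0.05 (all genes 2.52% and 0.643%), 0 lay below all controls (all genes 0.473%), and the median change was 0.077 (all genes 0.05). The t-test gave 2 higher with equal variances (1.68%, all genes 3.49%) and 1 with unequal variances (0.84%, all genes 2.89%), and the mean of all probe sets put 2 above all controls (1.68%, all genes 2.37%). Replicates 3 and 4 of Cre+ alone gave 12 higher, 3 lower (all genes 3.91% and 2.49%), 17 above and 8 below all controls (all genes 8.38% and 7.32%), and the male controls alone 3 above and 12 below (7.18% and 7.61%), where smaller groups overlap less by construction. Leaving out 1 array at a time gave 2 to 6 higher, 3 to 9 lower (9 without Cre+ replicate 3), 2 to 6 above (6 without replicate 1) and 3 to 7 below (7 without Cre+ replicate 3 or control 2), and medians of -0.037 to 0.034. In these fits 3.21% to 4.94% of all genes were higher, 2.51% to 3.68% lower, 3.55% to 4.51% above and 3.24% to 4.62% below, and without Cre+ replicate 3 7.56% of members were lower against 3.68% of all genes. The cause of these moves was not tested.

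Signs changed as follows. With a common median Cacna1h became -0.03, Cacna2d3 -0.01, Kcnmb4 -0.04 and Scn2a -0.04. With Eif2s3y as a covariate these 4 were -0.01, -0.02, -0.06 and -0.01, Kcnip1 -0.13 and Kcnj13 -0.02, and with male controls alone Cacna1h was -0.01, Cacna2d3 -0.02, Kcnip1 -0.13, Kcnmb4 -0.05 and Scn2a -0.01. With replicates 3 and 4 alone Cacnb4 was 0.21, Cacng3 0.04, Kcne2 -0.27, Kcnn4 -0.12 and Kcnj13 -0.58. Kcnj13 was -0.09 with a constant of 1, and with the mean of all probe sets Cacna1h was -0.07 and Kcnma1 -0.05. Over the fits that leave out 1 array, the changes of the genes that changed sign there ran as follows: Cacna1h -0.07 to 0.14, Cacna2d3 -0.15 to 0.17, Cacnb4 -0.34 to 0.00, Kcnh3 -0.05 to 0.29, Kcnip1 -0.11 to 0.19, Kcnj13 -0.19 to 0.44, Kcnma1 -0.17 to 0.21, Kcnmb2 -0.02 to 0.27, Kcnmb4 -0.03 to 0.06, Kcnmb4os1 0.00 to 0.13 and Scn2a -0.10 to 0.18.

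With the replicate number as a block 0 members were called, 3 were higher and 5 lower at unadjusted p under 0.05 (2.52% and 4.2%, all genes 3.67% and 2.61%), and the median stayed at 0.004. Arrays of like number had residual correlations of -0.282 to -0.0172, so they did not deviate together, and the block changed no call. Tissue differences between arrays also enter these residuals, so the check cannot decide whether like numbers share a litter.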
